A study of Mus musculus with 2 samples.

Results

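The nuclear factor I genes Nfia, Nfib, Nfic and Nfix and the early B-cell factor genes Ebf1, Ebf2, Ebf3 and Ebf4 were examined for open chromatin at their promoters, in their gene bodies and within 100 kb. They are 8 of the 21938 protein-coding genes of GENCODE mouse release M21, taken by name as the members of 2 transcription factor families. The families were selected on measured values, the frequency of their binding motifs in distal open sites of the same libraries, so all values are given as a description and no test was made. DNase-seq maps DNase I hypersensitive sites, places where chromatin is open enough for the nuclease DNase I to cut. It was done on MN1, an immortalized line of mouse strain B6NCrl for which the labels give no tissue. All cells had received 10 nM methyltrienolone, a synthetic androgen, and the 2 biological replicates form 1 group. No untreated library was analysed here, so every value is a level in treated cells.

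Nuclear factor I (NFI) proteins bind DNA as dimers at a palindrome whose half-sites TTGGC and GCCAA are held a fixed distance apart, and they are known for glial and neural stem cell development and for lung, tooth and muscle. Early B-cell factors (EBF) also bind as dimers, at a palindrome of TCCC and GGGA, and are known for B-lymphocyte commitment, neuronal differentiation and fat cells. Members of a family recognise the same site, so a motif does not tell which member, if any, is bound there.

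The authors' peak lists held 189648 peaks in replicate 1 and 170745 in replicate 2 on the main chromosomes, each peak with the authors' score, a whole number from 1 to 150 with no definition in the labels or file listings. The score is used only to describe and rank peaks within a list, where its median was 53.0 in replicate 1 and 51.0 in replicate 2. Peaks of both replicates that overlapped were merged into 127807 shared regions, and a promoter is called open where a shared region lies within 1 kb of any annotated transcription start of the gene. Of these regions 76127 are called distal because they lie more than 2.5 kb from any start. Read numbers were not analysed here, so depth is unknown and the lack of a peak does not show closed chromatin. Sequencing instruments are labelled for replicate 1 alone, so replicate and sequencing batch cannot be told apart.

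NFI or EBF sites lay in 7 distal shared regions in the bodies or 100 kb flanks of the 8 genes, and in 2 further regions near Nfic. An NFI site is TTGGC and GCCAA with 5 bases between them and at most 1 mismatch in the 10 fixed letters, and an EBF site is TCCC and GGGA with 2 bases between them and no mismatch, both sought on both strands. They are printed from the mm10 plus strand with 10 bases on each side, since they are where the motifs and the genes meet. Capitals mark the letters of the motif, and a mismatched letter within an NFI half-site is in lower case.
Nfib intron, NFI, chr4:82470425-82470439: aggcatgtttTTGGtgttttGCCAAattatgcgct
Nfib intron, NFI, chr4:82622642-82622656: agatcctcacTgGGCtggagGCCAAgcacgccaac
Nfix intron, NFI, chr8:84744186-84744200: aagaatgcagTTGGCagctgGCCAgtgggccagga
Nfic flank, NFI without a mismatch, chr10:81382146-81382160: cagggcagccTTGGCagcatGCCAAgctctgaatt
Nfia flank, EBF, chr4:98182175-98182184: gttaaggaatTCCCggGGGAttctgatctt
Nfib intron, EBF, chr4:82604639-82604648: ccgtgctgtcTCCCcaGGGAaatgatgtaa
Nfic flank, EBF, chr10:81358427-81358436: ttgtagccccTCCCtgGGGAattcctggaa
Ebf3 intron, EBF, chr7:137294581-137294590: aaatttgacaTCCCttGGGAtttgtggttt
Ebf4 intron, EBF, chr2:130362872-130362881: cgcctggtagTCCCcaGGGAtgtgtggctc

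These 9 sites were 4 NFI and 5 EBF sites, and 6 of them lay in an intron of the member itself as GENCODE annotates it. At Nfib, the EBF site and the second NFI site printed lay 101 and 83.1 kb from the GENCODE 5' end. The most 5' Nfib start in RefSeq, another annotation, is 198999 bp from that end, so both sites lie upstream of the gene by RefSeq. The site in the Ebf3 intron lay 19.8 kb from the gene's 5' end in a region that scored 105 in replicate 1, against 68 in replicate 2. The Ebf4 intron site lay in a region scored 100 and 103 in replicates 1 and 2, 67.7 kb into the gene. The palindrome near Nfic that matched in all letters lay in intergenic sequence 2228 bp from the nearest start, in a region scored 79 and 88. The Nfix intron site was in a region scored 72 and 81, 56.2 kb from the 5' end. At Nfib the regions scored 59 and 49 at the first NFI site printed, 44 and 51 at the second, and 64 and 43 at the EBF site. Near Nfia the region with the EBF site scored 72 and 46 and lay 31949 bp from the nearest start. The second Nfic region, scored 76 and 57, was in an intron of Mfsd12, 898 bp from a start. Each region with a site scored below the highest distal region of its locus in both replicates, and the Ebf4 intron region was the highest distal one within that gene's body.

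Few distal regions held a site, both at the 8 genes and over the genome. Of the 186 distal regions at the 8 genes 3 (1.61%, 95% Wilson interval 0.550% to 4.63%) held an NFI site, against 2534 of 76127 (3.33%, 3.20% to 3.46%) over the genome. EBF sites were in 4 of the 186 (2.15%, 0.839% to 5.40%), against 1673 of 76127 (2.20%, 2.10% to 2.30%). Intervals cover counting error only, and both intervals of the 186 regions include the share over the genome. Distal regions with an NFI site lay at Nfib and Nfix, 2 of the 8 genes, against 24.4% of all protein-coding genes with one in the body or within 100 kb. Those with an EBF site lay at Nfia, Nfib, Ebf3 and Ebf4, 4 of the 8 genes, against 19.8% of all genes. Long genes such as Nfib hold more regions, so these shares of genes depend on gene length as well as on the motif.

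Promoters of 7 of the 8 genes were open, against 59.5% of all protein-coding genes, and Ebf1 was the exception. All 4 NFI genes and Ebf2, Ebf3 and Ebf4 were open. The same 7 were open under every other setting tried, and the share of all protein-coding genes was then 57.8% with a 500 bp window, 63.4% with a 2.5 kb window, 55.6% with the stronger 50% of peaks, 59.0% with an overlap of at least 75 bp, 59.9% with hotspots, 60.8% with replicate 2 alone and 61.9% with replicate 1 alone. Hotspots are the wider regions of enriched cutting deposited beside the peaks. At 4 of the 8 genes (Nfix, Ebf2, Ebf3 and Ebf4) the annotated 5' end was CpG-rich, with an observed to expected CpG ratio of at least 0.6 and at least 50% GC in 1 kb. All 4 were open, as were 87.9% of genes with such a 5' end. Starts of a gene less than 1 kb apart were joined into start clusters, numbered along the gene from its 5' end, and scores at a cluster are those of the highest peak of each replicate, not always the same peak in both. Of the members' 25 clusters 15 were open, against 36.6% of the 48610 clusters of all protein-coding genes. The NFI genes had 10 of 16 open and the EBF genes 5 of 9.

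Nfia, a factor required for the onset of glial differentiation (ENSMUSG00000028565.18, chr4:97772734-98118874, plus strand), was open at its first cluster, where peaks reached 143 in replicate 1 and 130 in replicate 2. That cluster is the start of 1 transcript, and 3 shared regions lay within 1 kb of it. The second cluster, 4874 bp downstream, is where 5 transcripts start, and it had neither a peak nor a hotspot in either replicate. It holds 112 CpG in 1 kb at 69.0% GC, and the nearest shared region was 2303 bp away. Start clusters with at least 100 CpG in 1 kb, a limit set after these values were seen, were open in 86.6% of 2079 cases over all protein-coding genes, against 34.3% of the other 46531. Among GENCODE starts the members have 5 such clusters, at Nfia, Nfic, Nfix, Ebf3 and Ebf4, and the Nfia cluster was the one that was not open. Whether reads can be placed there was not tested. The third Nfia cluster had a peak in replicate 1 only, scored 31, and the fourth, 138299 bp from the 5' end, scored 82 and 59 in replicates 1 and 2.

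Nfib, required for lung and forebrain development (ENSMUSG00000008575.17, chr4:82290173-82705750, minus strand), had no peak at its most 5' start, that of 1 transcript. The cluster of 10 transcripts 199971 bp further on held 6 shared regions, the most of any member cluster, with peaks up to 131 in replicate 1 and 124 in replicate 2. A hotspot of 2658 bp in replicate 1 and 1285 bp in replicate 2 covered it. The third cluster scored 72 and 41, from a region 831 bp away.

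Nfic, known for tooth root formation in mice (ENSMUSG00000055053.18, chr10:81396186-81455635, minus strand), was open at 3 of 5 clusters. The fourth cluster scored 143 in replicate 1, as did the first Nfia cluster, and 140 in replicate 2, the highest of any start of the 8 genes in that list. The second scored 123 and 116, and the third 110 and 86. The replicates differed in extent at the third cluster, where replicate 1 had 6 peaks and a hotspot of 1247 bp, and replicate 2 had 1 peak and a hotspot of 284 bp. No peak lay at the first cluster or the fifth.

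Nfix, which acts in neural stem cells and in fetal muscle (ENSMUSG00000001911.16, chr8:84699876-84800344, minus strand), was open at 3 of 4 clusters. Its first cluster, with 180 CpG in 1 kb the most CpG-dense of all 25, scored 116 in replicate 1 and 106 in replicate 2 under hotspots of 2371 and 1923 bp. The second scored 136 and 126 and the third 110 and 89. The fourth had no peak within 1 kb, although hotspots of 379 bp in replicate 1 and 387 bp in replicate 2 reached into that window.

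Ebf1, the factor that commits cells to the B-lymphocyte lineage (ENSMUSG00000057098.14, chr11:44617317-45008091, plus strand), had no peak and no hotspot in either replicate within 1 kb of any of its 3 clusters. Its nearest shared region was 6172 bp from the first cluster, on the 5' side. The first cluster, where 5 transcripts start, has 24 CpG in 1 kb at 43.3% GC, so it is not among the CpG-dense starts.

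Ebf2, known for brown fat and for the migration of some neurons (ENSMUSG00000022053.13, chr14:67233292-67430918, plus strand), was open at both clusters through a region that reached 101 (replicate 1) and 86 (replicate 2) and lay 114 bp upstream of its second start. A weak region at the first start scored 32 and 30, and Gm20675 also starts within 1 kb of it. Ebf2 had the lowest promoter scores of the open members. The percentile of its best region, taken as the lower over both replicates, stood at percentile 16.5 when ranked among the best regions of all 13054 open protein-coding promoters. The others ranked from 26.4 (Ebf4) to 76.0 (Nfic), with Nfib at 35.9, Nfix at 53.1, Nfia at 61.1 and Ebf3 at 71.0.

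Ebf3, a factor of neuronal differentiation (ENSMUSG00000010476.14, chr7:137193673-137314445, minus strand), scored 143 in replicate 1 and 134 in replicate 2 at its first cluster. The cluster, where 6 transcripts start, held 5 shared regions under hotspots of 3145 bp in replicate 1 and 2774 bp in replicate 2, the widest at any start of the 8 genes. The second cluster scored 51 and 35 and the third had no peak. Ebf4 (ENSMUSG00000053552.14, chr2:130295169-130370481, plus strand), the least studied of the family, has 1 cluster, which scored 119 and 105. It held 5 peaks in replicate 1 and 2 in replicate 2. No start of another annotated gene lay within 1 kb of the promoter regions of any open member except the weak Ebf2 region.

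**Figure D1:**
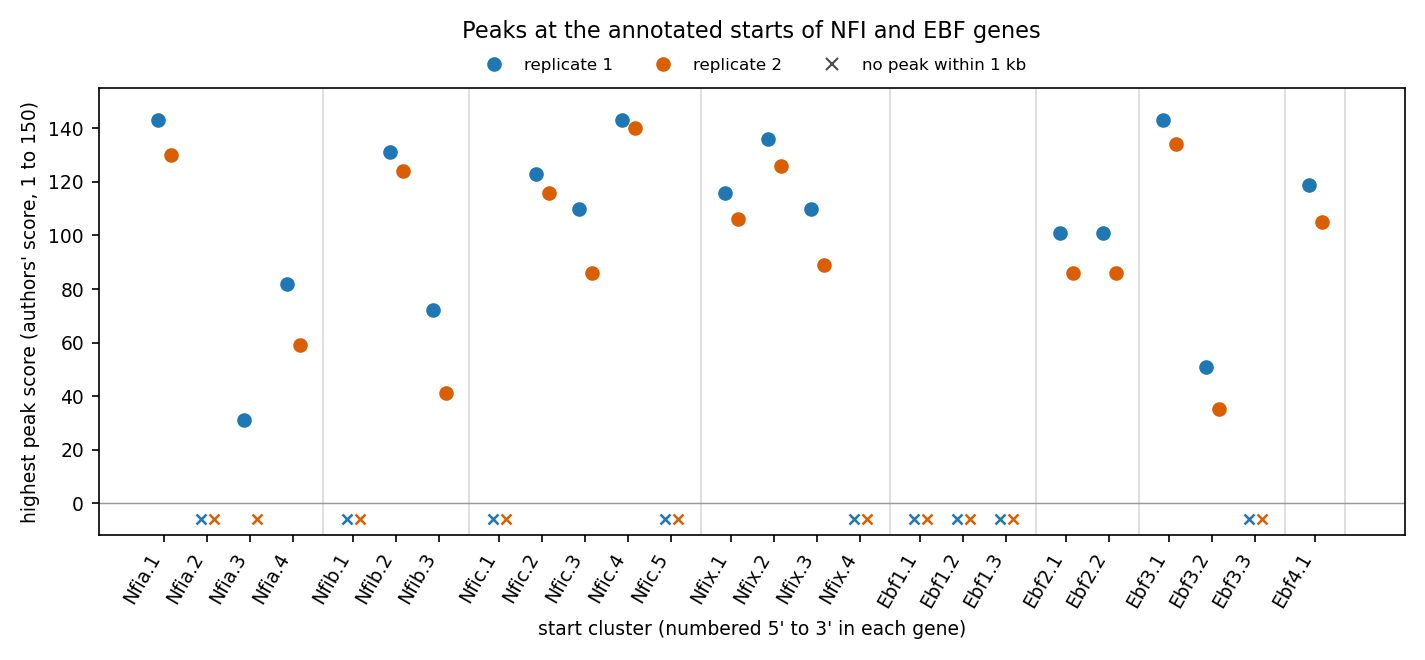
The highest peak score within 1 kb of each start cluster of the 8 genes (y axis, the authors' score from 1 to 150), with 1 point per replicate and clusters numbered from the 5' end (x axis); a cross stands for no peak. All 3 Ebf1 clusters carry crosses in both replicates, and so does the second Nfia cluster, while the highest replicate 1 score, 143, is shared by Nfia cluster 1, Nfic cluster 4 and Ebf3 cluster 1, and the highest replicate 2 score, 140, is at Nfic cluster 4.

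Sequences of 3 promoters are printed as examples of an open CpG-dense start, an open start with fewer CpG and a start without a peak, with CpG in capitals. The Nfia stretch (chr4:97772236-97772385, plus strand) is the highest promoter peak in replicate 1. The Ebf3 stretch (chr7:137314454-137314565, minus strand) is the part of its highest promoter peak before the start that RefSeq places at chr7:137314453, just upstream of the GENCODE one. The Ebf1 stretch (chr11:44617167-44617316, plus strand) is the 150 bases before its first start.
Nfia: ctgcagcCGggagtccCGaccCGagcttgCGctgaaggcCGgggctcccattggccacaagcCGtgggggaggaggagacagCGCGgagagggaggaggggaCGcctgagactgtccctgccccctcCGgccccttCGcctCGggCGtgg
Ebf3: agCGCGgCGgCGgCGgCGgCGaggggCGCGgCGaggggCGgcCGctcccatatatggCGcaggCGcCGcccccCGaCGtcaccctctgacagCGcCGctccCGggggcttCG
Ebf1: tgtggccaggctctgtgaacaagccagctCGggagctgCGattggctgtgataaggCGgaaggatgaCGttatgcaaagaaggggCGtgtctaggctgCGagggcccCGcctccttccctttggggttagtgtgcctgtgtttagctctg

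The Ebf3 stretch holds 21 CpG in 112 bases at 81.2% GC, the Nfia peak 13 in 150 bases at 73.3% GC and the Ebf1 stretch 7 in 150 bases at 58.7% GC. None of the 3 holds an NFI or EBF site by the definitions above. In RefSeq's table of 300-base promoters (GRCm38.p6), 10 promoters of 6 members matched by symbol, and 0 of the 10 held either site. Of all 32851 promoters in that table, 0.907% held an NFI site and 0.904% an EBF site, shares at which 0 of 10 says nothing particular about the members.

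With RefSeq starts, a setting chosen after the data were seen, the same 7 genes were open, at 13 of 22 start clusters. RefSeq places 2 further Nfia starts upstream, at -194668 and -190791 bp from the GENCODE 5' end, and neither had a peak. It also places an Ebf3 cluster at -8360 bp, with 102 CpG in 1 kb at 70.7% GC. That cluster had no peak or hotspot in either replicate, nor had an Nfix cluster of 9 transcripts at 20257 bp. Ebf1 had no peak at its 2 RefSeq clusters. The 1 kb limit fell between regions 363 and 831 bp from the third clusters of Nfix and Nfib, which count as open, and regions 1078, 1214 and 1242 bp from the fourth Nfix cluster, the third Ebf3 cluster and the fifth Nfic cluster, which do not.

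Shared regions in gene bodies numbered from 0 at Ebf1 to 52 at Nfib. The 4 NFI genes held 142 shared regions in 922 kb of gene body (15.4 per 100 kb), and the 4 EBF genes 32 in 784 kb (4.08 per 100 kb). These 2 densities pool the regions and lengths of 4 genes each. Medians of the densities of single genes were 22.7 per 100 kb for the NFI genes and 5.15 for the EBF genes, against 7.46 for all protein-coding genes. At least 1 shared region was in 7 of the 8 bodies, against 66.8% of all genes, again without Ebf1. This comparison takes no account of gene length. It also counts regions at promoters, so it partly repeats the promoter result. Nfic had the highest density, 50.5 per 100 kb from 30 regions, at percentile 93.2 of all protein-coding genes. Nfix followed with 32.8 from 33 regions (percentile 87.0), Ebf3 with 19.0 from 23 (74.7) and Nfib with 12.5 from 52 (63.2). Ebf4 had 9.29 from 7 regions (percentile 55.1) and Nfia 7.80 from 27 (50.9). Several of these counts moved by more than 1.5 times with other peaks. Nfic had 53 regions and Ebf4 11 with the peaks of replicate 1 alone, and Nfic 18 and Ebf3 12 with hotspots. With the stronger 50% of peaks Nfib had 26 and Nfia 9. By number, the 52 regions of Nfib stood at percentile 99.8 of all genes, in a body of 416 kb. That body is the GENCODE one, and its first 198999 bp lie upstream of every RefSeq start of Nfib. Regions in that stretch are among the 52, so the Nfib count and density depend on the annotation.

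The bodies of Ebf1 and Ebf2 were nearly or wholly without regions. Ebf2 held 2 in 198 kb (1.01 per 100 kb), both at its promoter, and none was distal. Ebf1 held none in 391 kb. Replicate 1 had 3 peaks there, scored 16, 18 and 18, between 107 and 220 kb from the 5' end, and replicate 2 had none. Those scores were within the lowest 2.83% of that list. Of 567 protein-coding genes with bodies of 300 kb or more, Ebf1 was among the 122 (21.5%) with no shared region. It was not among the 41 (7.23%) with no peak of either replicate. The median of these long genes was 7.00 regions.

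**Figure D2:**
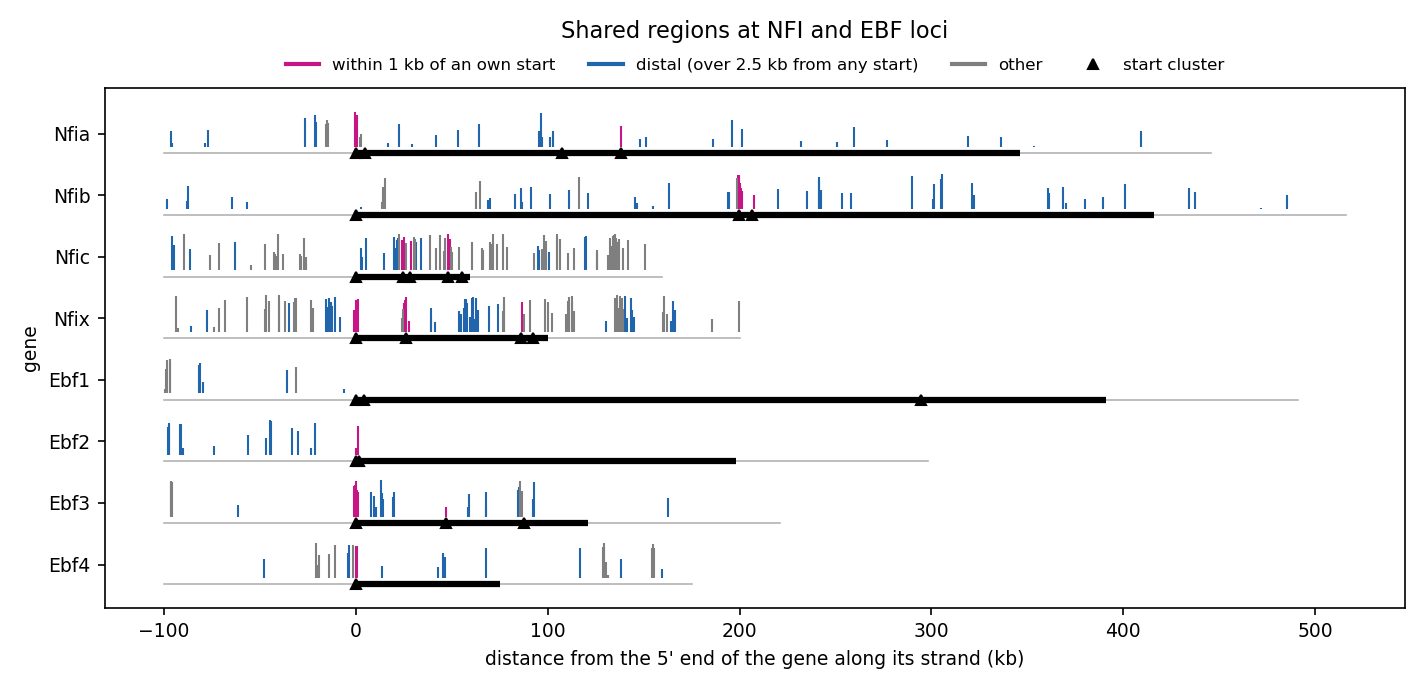
Shared regions (vertical ticks) along the 8 loci by distance from the gene's 5' end in kb (x axis), 1 row per gene, with the gene body as a black bar, 100 kb flanks as a thin line and start clusters as triangles; tick height is the lower percentile of score over both replicates. The Ebf1 bar carries no tick in 391 kb and the Ebf2 bar only those at its start, while Nfib carries 52 along 416 kb.

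**Figure D3:**
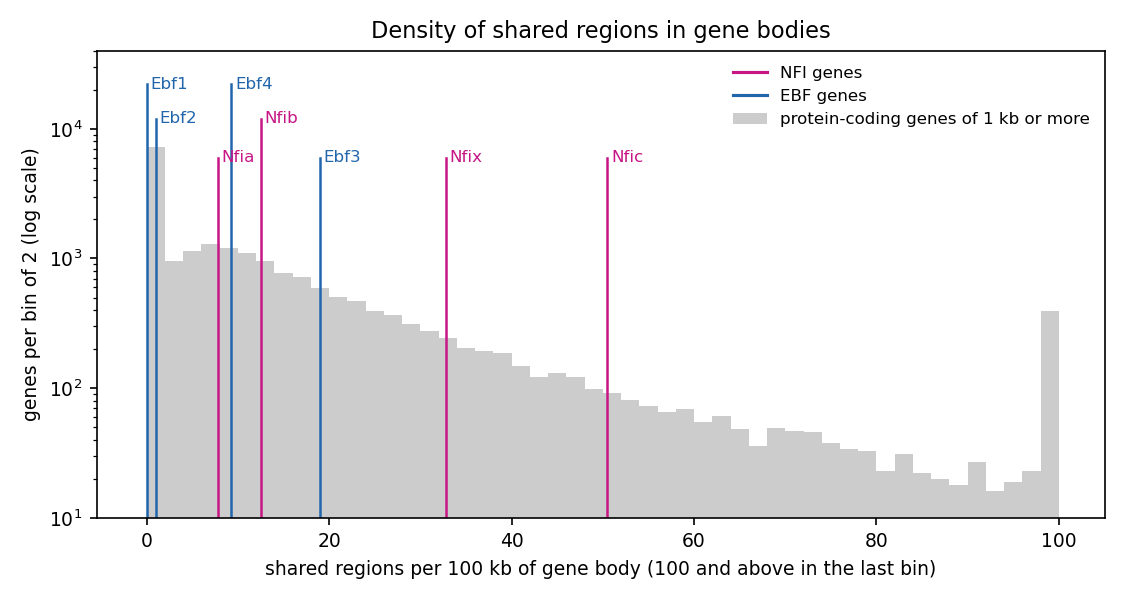
Number of protein-coding genes of 1 kb or more (y axis, log scale) by shared regions per 100 kb of gene body (x axis, bins of 2), with each member as a labelled line. The last bin also holds all genes of higher density. Ebf1 and Ebf2 lie at the low end, at 0 and 1.01, and Nfix and Nfic at 32.8 and 50.5.

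Among the flanks, those of Nfic and Nfix held the most regions. Each had 58 shared regions within 100 kb outside the body, in neighbourhoods where promoters of 12 of 17 and 13 of 13 other protein-coding genes were open. Ebf4 had 20, with 5 of 10 neighbours open, and Ebf2 had 15 with no protein-coding neighbour, all 15 of them distal. Nfia had 13, Ebf1 11, Nfib 9 and Ebf3 7. The order of these last 4 depended on the peaks used. With the peaks of replicate 1 alone Nfia had 20, Nfib 16, Ebf3 15 and Ebf1 12, and with those of replicate 2 alone Nfia had 17, Ebf1 15, Ebf3 11 and Nfib 9. With the stronger 50% of peaks Ebf1 had 8, Nfia 7, Ebf3 5 and Nfib 2. Around Ebf1 the 1 neighbour, Rnf145, an E3 ubiquitin ligase gene, was open at scores of 130 in replicate 1 and 134 in replicate 2, and 5 of the 11 regions were distal. The highest neighbour scores near Nfix were those of Calr, a calcium-binding chaperone of the endoplasmic reticulum, at 150 in replicate 1 and 147 in replicate 2. A median protein-coding gene had 17.0 shared regions in its flanks.

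Most peaks at these loci were found in both replicates. Of 516 peaks of replicate 1 in the bodies and flanks of the 8 genes 71.3% overlapped a peak of replicate 2, against 68.7% over the genome. Of 450 peaks of replicate 2 it was 82.2%, against 76.7%. By gene the share ran from 65.2% (Ebf3) to 83.6% (Nfix) in replicate 1 and from 73.3% (Ebf1) to 90.7% (Nfic) in replicate 2. Nfix had fewer peaks in replicate 1 than in replicate 2, 110 and 123, and Ebf2 had 22 and 23. Ebf1 had 15 in each, and the other 5 had more in replicate 1.

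The highest distal region of each gene, ranked by the lower percentile over both replicates, lay in an own intron at Ebf3, Nfib and Nfia and in the flank at Ebf1, Ebf2, Ebf4, Nfic and Nfix. In Ebf3 it was at chr7:137301416-137301625, 12.9 kb from the 5' end, with scores of 147 in replicate 1 and 136 in replicate 2. A second Ebf3 intron region 92.6 kb from the 5' end scored 140 and 121. In Nfib it was at chr4:82400176-82400325, 306 kb from the 5' end, with 144 and 126, and further intron regions 290 and 241 kb in scored 136 and 105, and 113 and 115. The Nfia intron region 96.3 kb in (chr4:97868976-97869125) scored 135 and 121. For comparison, the highest promoter peaks of these genes reached 143 and 134 (Ebf3), 131 and 124 (Nfib) and 143 and 130 (Nfia) in replicates 1 and 2.

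The Nfib and Ebf3 peaks are printed because they rank highest among distal regions in member introns, by the lower percentile over both replicates. Both are given on the minus strand that the 2 genes use, with CpG in capitals. The Ebf3 sequence is the replicate 1 peak, chr7:137301476-137301625.
Nfib intron: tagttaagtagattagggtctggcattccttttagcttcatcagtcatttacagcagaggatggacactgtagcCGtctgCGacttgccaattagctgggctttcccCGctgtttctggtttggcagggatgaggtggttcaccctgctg
Ebf3 intron: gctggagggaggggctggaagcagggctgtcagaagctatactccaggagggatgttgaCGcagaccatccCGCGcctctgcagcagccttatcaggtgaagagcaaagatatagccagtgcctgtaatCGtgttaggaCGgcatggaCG

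The Nfib sequence holds 3 CpG and the Ebf3 sequence 6 in 150 bases, fewer than the promoter stretches of Nfia and Ebf3, and neither holds an NFI or EBF site.

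In the flanks, an Ebf2 region in an intron of Gm30806 at -44.7 kb from the Ebf2 5' end (chr14:67188476-67188625) scored 139 in replicate 1 and 129 in replicate 2. That is above the scores of 101 and 86 at the Ebf2 promoter itself. A second region beside it scored 129 and 123. The highest distal region near Nfix (chr8:84660036-84660205) scored 139 and 136, and those near Nfic and Ebf4 136 and 124, and 123 and 120. The region near Ebf1 was the lowest of the 8 in replicate 1, at 104 in replicate 1 and 120 in replicate 2, and lay in an intron of Rnf145 at -81.3 kb from the Ebf1 5' end (chr11:44535916-44536085). Which gene any of these regions acts on was not tested.

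Over the genome, the sites of both families were more frequent in distal regions than beside them, the measure that chose the families. The 150 bp around the centre of each region were set beside the flank 1 kb downstream. NFI sites were in 3.33% of regions and 0.365% of flanks (0.325% to 0.411%), a ratio of 9.12. Palindromes that matched in all 10 letters were in 162 regions and 8 flanks, a ratio of 20.2. EBF sites were in 2.20% of regions and 0.347% of flanks (0.307% to 0.391%), a ratio of 6.34. In regions centred within 1 kb of a start the ratios were lower, at 3.85 for NFI (1.25% of 36845 regions and 0.326% of flanks) and 2.77 for EBF (1.36% and 0.491%). Both sites together were in 22 distal regions (0.0289%, 0.0191% to 0.0438%) and in 1 flank (0.00131%, 2.32e-04% to 0.00744%). Whether the sites share a region more or less often than their separate frequencies imply was not tested.

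The ratio depended on how the half-sites were arranged. A single NFI half-site was in 34.2% of regions and 22.3% of flanks, a ratio of 1.54, and a single EBF half-site in 79.3% and 74.0%, a ratio of 1.07. With the 2 NFI half-sites matched in full, 5 bases apart gave the ratio of 20.2, and the 10 other spacings up to 10 bases gave ratios of 1.00 to 7.00 with a median of 2.04. The next highest, 4 bases, rests on 21 regions and 3 flanks. With the stronger 50% of peaks 4 bases had 13 regions and 1 flank, a higher ratio than the 53 regions and 6 flanks at 5 bases, though 1 flank gives no firm ratio. EBF half-sites 2 bases apart were in 1673 regions and 264 flanks, and the 8 other spacings up to 8 bases gave 0.330 to 3.09 with a median of 1.39. The low value, at 7 bases, comes from 1084 flanks against 358 regions, and 76.9% of those flanks had the match in sequence that the reference marks as repeats, against 19.0% of the regions.

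**Figure D4:**
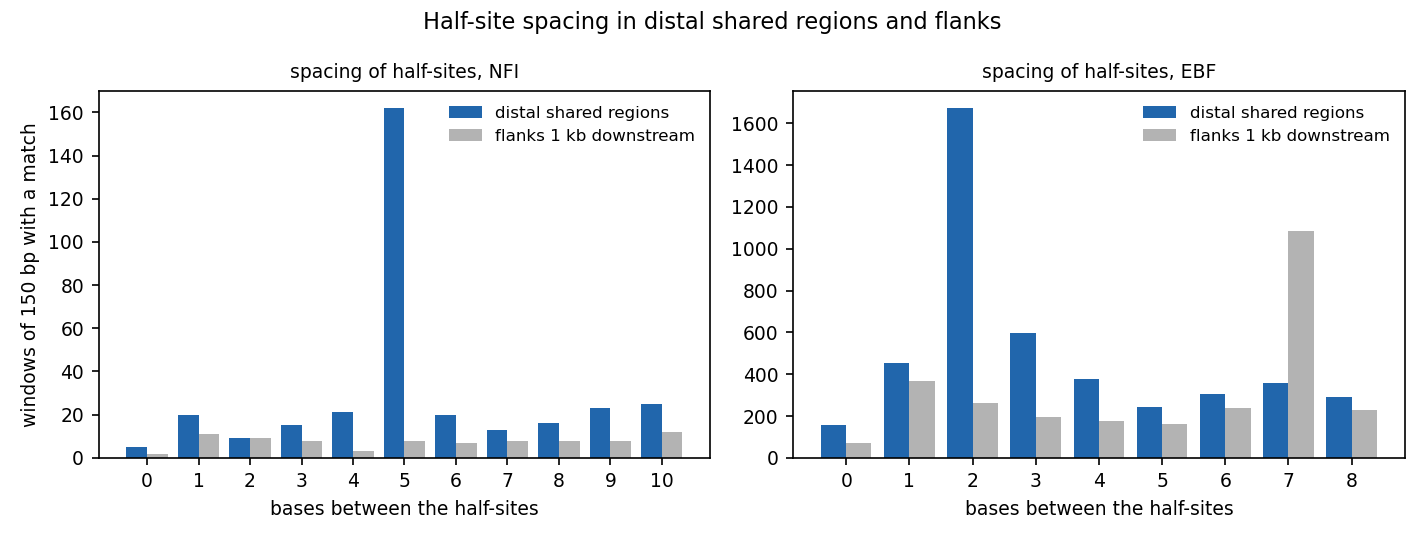
Number of 150 bp windows with both half-sites matched in full (y axis) by the number of bases between them (x axis), for distal shared regions (blue) and flanks 1 kb downstream (grey), NFI on the left and EBF on the right. Regions stand out at 5 bases for NFI, with 162 windows and 8 flanks, and at 2 bases for EBF, with 1673 and 264, and flanks exceed regions at 7 bases for EBF.

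Where an NFI site had 1 mismatch, the ratio differed by the letter it fell on. Counted from the outer end of either half-site, a mismatch in the first T was found at 1045 sites in regions and 73 in flanks, a ratio of 14.3. For the second T the ratio was 11.2 and for the C at the inner end 10.2. For the inner G it was 2.98, from 143 and 48 sites, and for the outer G 1.27, from 52 and 41. Of the sites with 1 mismatch, 2.18% in regions had it in the outer G, against 15.2% in flanks. The commonest centres of EBF sites made up like shares in regions and flanks, and some rarer ones did not. The centre CA, as in the Nfib and Ebf4 introns, made up 32.7% of EBF sites in regions and 31.8% in flanks, AG 26.9% and 23.5%, and AA 15.7% and 15.9%. CG made up 2.26% in regions and 4.92% in flanks, a ratio of 2.92 from 38 and 13 sites, and AC 2.55% and 4.17%, a ratio of 3.91 from 43 and 11.

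Sites of both families lay at the middle of the peaks. Within 40 bp of the centre of the replicate 1 peak there were 3.11 NFI sites per 10 kb of sequence, against 0.317 more than 400 bp away. With the peaks of replicate 2 it was 3.37 against 0.327. EBF sites numbered 2.03 against 0.279 with the peaks of replicate 1 and 1.95 against 0.296 with those of replicate 2. At the member loci, the 9 printed sites lay from 13 to 47 bp from the centres of their shared regions. Those sites were sought only in the 150 bp around the centres, so short distances were fixed by the search and show nothing about position.

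**Figure D5:**
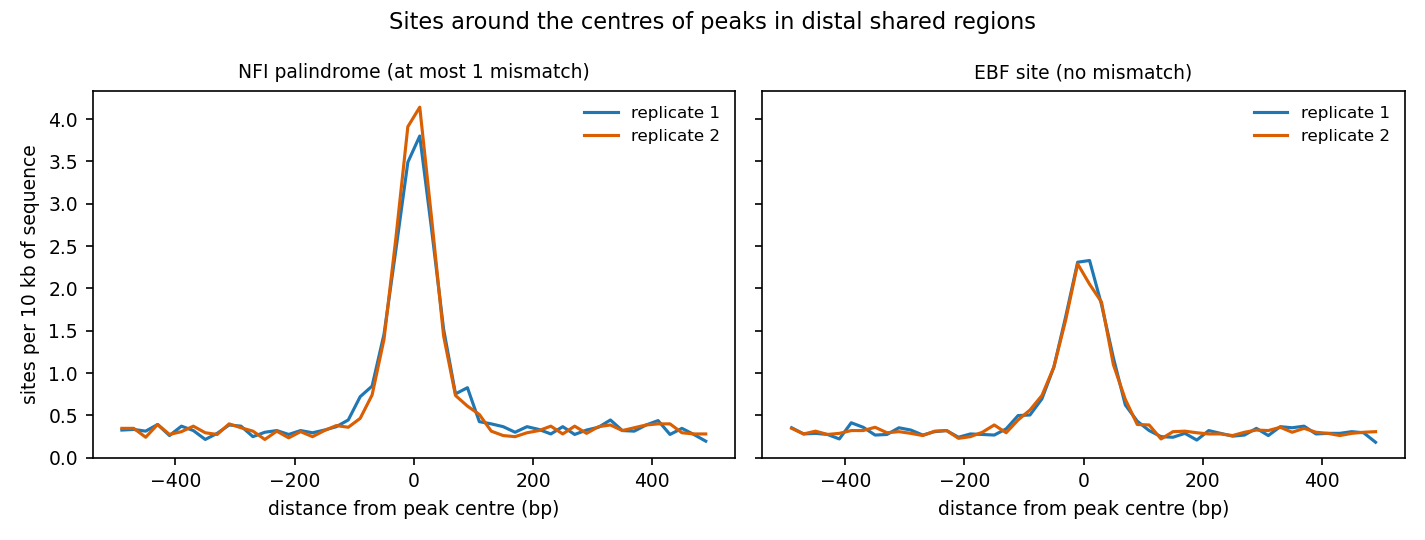
NFI (left) and EBF (right) sites per 10 kb of sequence (y axis) by distance from the centre of the peak in bp (x axis, bins of 20 bp), for the highest peak of each replicate in distal shared regions. Both lines of each panel are highest in a bin next to the centre, at 3.80 and 4.14 for NFI and 2.33 and 2.29 for EBF in replicates 1 and 2, and both level off on either side of the peak.

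Sites of NFI were more frequent in weak than in strong peaks of both lists, and those of EBF in replicate 2 only. By decile of score in replicate 1, NFI sites were in 4.44% (95% Wilson interval 4.0% to 4.93%) of the weakest distal regions and 2.40% (2.08% to 2.77%) of the strongest. In replicate 2 it was 5.02% (4.55% to 5.53%) and 2.69% (2.35% to 3.08%), so the order was the same in both lists. The EBF share ran in opposite directions in the 2 lists. It was 1.59% (1.33% to 1.90%) in the weakest and 2.57% (2.24% to 2.95%) in the strongest decile of replicate 1, and 3.28% (2.91% to 3.71%) in the weakest and 1.77% (1.50% to 2.09%) in the strongest decile of replicate 2. Regions with an EBF site had median scores of 69.0 in replicate 1 and 49.0 in replicate 2, against 62.0 and 55.0 for regions with neither site, and regions with an NFI site 58.0 and 50. Distal peaks that met no peak or hotspot of the other replicate were read alone. NFI sites were in 2.68% of 38911 such peaks of replicate 1 and 2.19% of 21451 of replicate 2, and EBF sites in 3.69% (3.51% to 3.88%) and 0.769% (0.661% to 0.895%), where flanks held 0.368% and 0.270%. Each list is 1 library, so these values describe the 2 libraries and their batches.

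Partners and known targets of the factors were read by the same promoter rule. Of 21 such genes 10 were open (47.6%), against 59.5% of all protein-coding genes. Of the 2 zinc finger partners of EBF proteins, Zfp423 was open at 136 in replicate 1 and 121 in replicate 2 and held 58 shared regions in its body, and Zfp521 had no promoter peak and no shared region in its body. Of 7 EBF1 targets of B lymphocytes 2 were open. Pax5, a B-lineage factor, scored 138 and 127. Vpreb1, part of the pre-B-cell receptor, scored 141 and 136 at a region that also lies within 1 kb of a start of Top3b, a DNA topoisomerase gene. Cd79a and Cd79b, the signalling chains of the B-cell receptor, Igll1 and the kinase gene Blk had no promoter peak, and Foxo1 had one in replicate 2 only, scored 22. Of 4 EBF targets of fat cells Pparg, the master regulator of fat cell differentiation, was open (110 and 99), and Cebpa, another factor of fat cells, and Prdm16 and Ucp1, genes of brown fat, had no promoter peak.

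NFI targets of glia and neural progenitors were open at 6 of 8 genes, against 59.5% of all protein-coding genes, and with 8 genes nothing is read from the difference. Ezh2, a histone methyltransferase, scored 149 in replicate 1 and 140 in replicate 2. Sox9, a glial and neural crest factor, scored 129 and 120, at a region within 1 kb of a start of BC006965 as well. Gfap, the astrocyte intermediate filament, scored 113 in both replicates, Zcchc24 111 and 91, Fabp7, a fatty acid binding protein of radial glia, 71 and 69, and Hes1, a Notch effector, 69 and 71. Apcdd1 and Mmd2 had no promoter peak. Distal regions with an NFI site lay around 3 of the 8 (37.5%), Hes1 and Ezh2 with 1 region each and Zcchc24 with 2, against 24.4% of all protein-coding genes. None of these regions lay around Gfap, Fabp7, Sox9, Apcdd1 or Mmd2. Distal regions with an EBF site lay around 4 of the 7 B-lymphocyte targets (57.1%), against 19.8% of all protein-coding genes. Cd79a had 2 such regions and Blk, Pax5 and Foxo1 1 each, and 1 of these 4 genes had an open promoter. The 7 loci held from 3 (Vpreb1 and Igll1) to 23 (Blk) distal regions, and nothing is read from a share of 7 genes. Of the 4 fat cell targets Pparg had 1 such region, and of the 2 partners Zfp423 had 1. None of the 8 NFI targets had a distal region with an EBF site. NFI sites were not limited to the NFI targets. Of the 4 fat cell targets of EBF, 2 had distal regions with an NFI site, Ucp1 with 2 and Pparg with 1. Zfp423 also had 1, and the 7 B-lymphocyte targets had none. With so few genes per list, nothing is read from how these shares compare.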

How the data were processed

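DNase-seq peaks and hotspots of 2 biological replicates of 1 group were used. Peaks and hotspots were called per library from its alignment to mm10 and not pooled, per the listing the authors deposited with each library. Aligner and caller were not given in the sources used here. Each peak of 150 bp carries a score deposited by the authors, from 1 to 150, of unstated meaning. Hotspots carry the −log10 of a q-value, deposited by the authors with a range of 1.30 to 100, which was not used to filter.

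Analysis was limited to 21 main chromosomes, and duplicated lines (15 in replicate 1, 26 in replicate 2) were dropped. Where peaks of both replicates met by 1 bp or more they were joined as shared regions. Starts and gene bodies were those of GENCODE M21 on GRCm38, the assembly of mm10, and coordinates are 1-based. Scores were turned into percentiles within each list. Gene body densities count regions per 100 kb. Motifs were read from the RefSeq copy of GRCm38 in the 150 bp around region centres and 1 kb downstream. The overlap and joining of peaks and the search for NFI and EBF sites were tested on simulated data, and the other steps were not. The software was Python 3.11.15, numpy 2.4.6, pandas 2.3.3, scipy 1.17.1 and pysam 0.24.0. The 95% Wilson intervals cover counting error alone.

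The genes, the partner and target lists, the motifs and the alternatives were chosen with earlier results of these data known. The genes named were all 8 members with every start cluster, the 3 highest distal regions of each locus, every site found there and all listed partners and targets, and not all of those regions are printed. A planned comparison of the member proteins was not made. A peak list depends on depth, on the caller's threshold and on whether reads can be placed.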

Additional observations from a re-analysis of the deposited data

How the results depend on the processing

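The same 7 members were open in all 8 alternatives tried, 1 of them (RefSeq starts) chosen after the data were seen, and 10 to 12 of the 21 partner and target genes were in the other 7. With the stronger 50% of peaks, the bodies held 109 regions in place of 174, 3 distal regions held a site in place of 7, the NFI ratio was 7.70 in place of 9.12, and the 5-base NFI and 2-base EBF spacings stood 3.12 and 3.25 times above the median of the other spacings in place of 9.92 and 4.56. Flanks of 50 kb and 200 kb held 107 and 382 regions in place of 191. The NFI ratio was also 7.70 with flanks matched on GC content, 9.47 with an overlap of at least 75 bp, 9.85 with a distal limit of 10 kb, 9.90 with upstream flanks and 20.2 with no mismatch, and upstream flanks moved the NFI spacing value to 11.4. In place of 6.34, the EBF ratio was 4.67 with flanks matched on GC content and 4.81 with the stronger 50% of peaks. It was 2.15 with 1 mismatch. With NFI sites in full and EBF sites with 1 mismatch 24 distal regions held a site. Leaving out either replicate gave ranges of 8.23 to 8.71 for the NFI ratio, 5.17 to 7.56 for the EBF ratio, 10.3 to 11.9 for the NFI spacing, 3.91 to 5.45 for the EBF spacing, 9 to 13 for distal regions with a site, and 204 to 255 for regions in the bodies. The 13 is with the peaks of replicate 1 alone. The cause of these shifts was not tested, apart from the fewer peaks or other letters that each setting uses by construction. Counts of regions in the body or flanks of single genes changed by more than 1.5 times for 32 values and by no more than that for 64, nor did any of the 28 counts of open promoters in single lists change by more. No paired analysis was possible because both replicates belong to 1 group. Depth is unknown, so weak sites such as the 3 peaks in Ebf1 cannot be weighed by reads, and a missing peak shows no closed chromatin.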
